A study of Mus musculus with 62 samples.

Results

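The oligodendrocyte precursor genes described here are Olig1, Olig2, Sox10, Pdgfra, Cspg4, Gpr17, Nkx2-2, Bcas1 and Tnr. They were taken by symbol from 2 tables of RNA-seq read counts, in which genes carry Entrez identifiers, and make up 9 of the 27179 genes in each table. Olig1 and Olig2 lie in the part of chromosome 16 that is triplicated in Ts65Dn mice, a mouse model of Down syndrome, whereas the other 7 genes lie on other chromosomes and are present in 2 copies. All 9 genes passed the filter on low counts in every comparison. Their lowest raw count in any library was 33, for Nkx2-2 in an embryo.

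Oligodendrocyte precursor cells arise in the ventral forebrain and spinal cord, divide and migrate through the brain in response to platelet-derived growth factor, and remain in the adult hippocampus as a dividing population. The basic helix-loop-helix factors Olig1 and Olig2 and the HMG-box factor Sox10 specify and maintain the lineage, and the homeodomain factor Nkx2-2 acts at the step to differentiation. Pdgfra (the receptor for PDGF-A) and Cspg4 (the proteoglycan NG2) mark the dividing precursors, while Gpr17, an orphan G protein-coupled receptor, and Bcas1 mark cells that are leaving the cell cycle and starting to myelinate.

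Forebrain was taken at E17.5 (days of embryonic development) from 8 euploid and 7 Ts65Dn embryos, whose sex the labels do not give. Hippocampus was taken from mice of 6 weeks of age, with 8 euploid, 7 Ts65Dn and 8 Ts65Dn;Brwd1+/- males and 8 females of each genotype. All animals shared the mixed DBA/2J x B6EiC3Sn/J background. Ts65Dn animals carry a freely segregating extra chromosome with the distal part of chromosome 16 and the proximal part of chromosome 17, and Ts65Dn;Brwd1+/- animals carry the same trisomy together with a mutant allele (repro5) of Brwd1, a chromatin regulator of the segment, which was meant to return that gene to 2 functional copies. Each library came from bulk tissue, so fewer cells of the lineage and less RNA per cell cannot be told apart in any of the differences below.

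Library totals, in units of 1e6 reads, ran from 14.9 to 62.6 at E17.5 and from 33.6 to 137.1 in hippocampus. In each library, the median log2 ratio of the other tested genes of the triplicated segments to the euploid mean was taken as the dosage of the segments, for which 3 copies over 2 would give the log2 of 1.5. It lay between 0.513 and 0.615 in all Ts65Dn and Ts65Dn;Brwd1+/- libraries but 4. The libraries labelled M_TS_B145 (male Ts65Dn, 0.020), M_CR_T35 and M_CR_B138 (male Ts65Dn;Brwd1+/-, 0.033 and 0.029) and F_CR_B136 (female Ts65Dn;Brwd1+/-, -0.0084) lay at the euploid level, between -0.041 and 0.067, against their labels. Xist and Ddx3y went against the labelled sex in 2 libraries, M_TS_B88 and F_WT_B85. Brwd1 itself was higher in Ts65Dn than in euploid animals, by 0.56 on the log2 scale at E17.5 (adjusted p = 1.19e-05), 0.53 in males (0.00984) and 0.46 in females (0.0243). In Ts65Dn;Brwd1+/- vs. Ts65Dn its log2 fold change was -0.25 in males (adjusted p = 0.626) and -0.25 in females (adjusted p = 0.9999). Fold changes of Olig1 and Olig2 between genotypes that rest on the libraries at euploid dosage are given with and without them. Brwd1 was not refitted without them, and group medians and ranges include them.

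Olig2 spans chr16:91225550-91228677 and Olig1 chr16:91269769-91271939, both on the plus strand of mm10. Sox10 is at chr15:79154913-79164490, Pdgfra at chr5:75151322-75198206, Cspg4 at chr9:56865104-56899870, Nkx2-2 at chr2:147176485-147195434, Bcas1 at chr2:170343973-170427911 and Tnr at chr1:159523729-159931729, all protein-coding. Sequences of 250 bases before a RefSeq start are shown for Olig2, as the triplicated gene with the clearest change in adult hippocampus, and for Pdgfra, as the 2-copy gene that changed in embryos. They are from RefSeq (GRCm38.p6, the assembly of mm10), for the plus strand at chr16:91225300-91225549 and chr5:75152001-75152250, the second of which lies inside the span given for Pdgfra. Capitals mark matches to CANNTG, the E-box core that basic helix-loop-helix factors such as Olig1 and Olig2 bind, or to TATAAA, searched on both strands.
Olig2: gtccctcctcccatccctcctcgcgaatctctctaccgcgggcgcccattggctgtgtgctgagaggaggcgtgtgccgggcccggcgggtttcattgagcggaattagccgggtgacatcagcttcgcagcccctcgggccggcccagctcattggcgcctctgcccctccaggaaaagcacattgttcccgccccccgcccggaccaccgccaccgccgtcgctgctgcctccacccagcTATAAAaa
Pdgfra: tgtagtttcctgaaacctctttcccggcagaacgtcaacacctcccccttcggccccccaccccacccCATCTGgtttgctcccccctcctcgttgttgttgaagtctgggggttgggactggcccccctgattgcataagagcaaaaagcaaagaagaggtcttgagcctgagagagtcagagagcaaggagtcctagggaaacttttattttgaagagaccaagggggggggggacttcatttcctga
The Olig2 window held no CANNTG and 1 TATAAA, which begins 8 bases before the start, and 66.8% of its bases were G or C. The Pdgfra window held 1 CANNTG and no TATAAA, with 54.4% G or C. Over the same 250 bases, 66.2% of 32851 mouse promoters held CANNTG and 12.4% held TATAAA. The promoter of Olig1 is not shown.

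To ask whether the extra copy of Olig1 and Olig2 was expressed in the adult hippocampus, Ts65Dn and euploid females were compared first. Both genes were higher in Ts65Dn females, by 36.3% for Olig1 and 34.4% for Olig2, and none of the 7 genes in 2 copies passed the test. Olig1 ran from 124.8 to 170.8 CPM (counts per 1e6 reads, after TMM scaling) in euploid females, with a median of 144.6, and from 162.7 to 239.6 with a median of 198.7 in Ts65Dn females. Olig2 ran from 28.4 to 36.7 CPM (median 33.1) and from 38.8 to 52.5 CPM (median 43.7), respectively. All 8 Ts65Dn females thus lay above every euploid female for Olig2, and 7 of 8 did for Olig1.

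The log2 fold change of Olig1 in females was 0.45 (SE 0.0813, adjusted p = 0.0036, edgeR's quasi-likelihood test with the Benjamini-Hochberg adjustment over all genes), a rise of 36.3%. That of Olig2 was 0.43 (SE 0.0746, adjusted p = 0.00235), a rise of 34.4%. Genes were called at an adjusted p-value under 0.1, and these were 2 of the 9 precursor genes, against 3.17% of all genes tested in this comparison (1.94% called higher and 1.22% lower). Both calls held in all 34 alternatives run, each library left out in turn included. Without F_WT_B125 and F_CR_B176, a pair of libraries described further on, the log2 fold changes were 0.49 (adjusted p = 0.000604) and 0.43 (adjusted p = 0.000826).

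**Figure D1:**
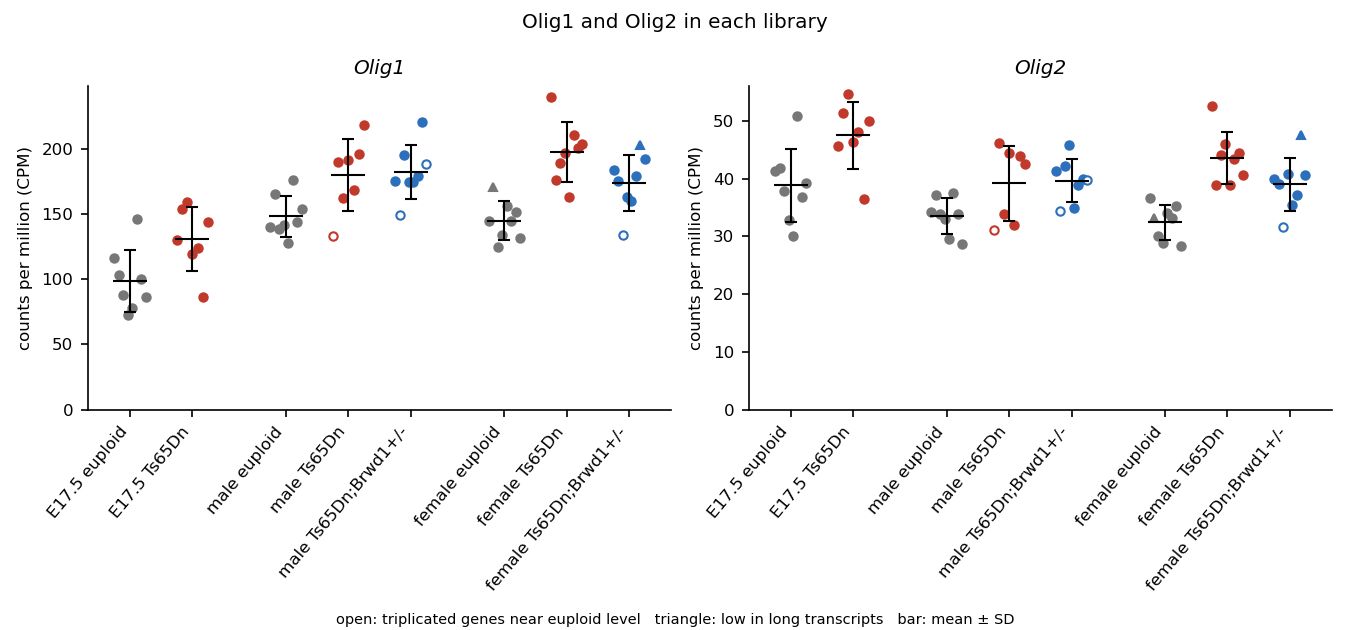
CPM of Olig1 and Olig2 in every library, by group, with the mean and SD as black bars. Open circles are libraries whose triplicated genes lay near the euploid level against their label, and triangles are the libraries low in long transcripts. In females all 8 Ts65Dn libraries lie above every euploid library for Olig2, while the groups overlap at E17.5 and in males.

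In females, the 7 genes in 2 copies had log2 fold changes between -0.08 and 0.18, and the lowest adjusted p-value among them was 0.411 (edgeR). Of these genes, Pdgfra and Tnr were each called in 2 of 18 alternatives other than leaving out a library. The median over the 7 genes was 0.06, beside -0.02 over all genes tested. Sox10 had a median of 69.6 CPM in euploid and 75.7 CPM in Ts65Dn females, with ranges of 53.7 to 84.4 and 63.9 to 84.8. Pdgfra had medians of 57.0 and 63.2 CPM, and its log2 fold change was 0.14 (SE 0.0918, adjusted p = 0.490), with 5 of 8 Ts65Dn females above all euploid females. Gpr17 (58.4 and 57.1 CPM) and Bcas1 (156.8 and 152.4 CPM) overlapped between these genotypes.

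Male Ts65Dn vs. euploid mice gave smaller differences in the same 2 genes, and none of the 9 was called by edgeR, against 0.795% of all genes. Olig1 and Olig2 had unadjusted p-values under 0.05, as did 8.91% of all genes. Olig1 ran from 127.3 to 176.0 CPM in euploid males (median 142.8) and from 133.4 to 218.3 CPM in Ts65Dn males (median 189.6). Olig2 ran from 28.6 to 37.4 CPM (median 33.9) and from 31.1 to 46.2 CPM (median 42.6). For each gene 4 of 7 Ts65Dn males lay above all euploid males, and the lowest Ts65Dn value of each belonged to M_TS_B145, the library at euploid dosage.

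The male log2 fold changes were 0.28 for Olig1 (SE 0.0879, adjusted p = 0.257) and 0.22 for Olig2 (SE 0.0863, adjusted p = 0.415). Without M_TS_B145, M_CR_T35 and M_CR_B138, Olig1 had a log2 fold change of 0.34 and was called (adjusted p = 0.0266), and Olig2 one of 0.27 (adjusted p = 0.194). With any 1 library left out, the values ran from 0.23 to 0.34 for Olig1 and from 0.18 to 0.27 for Olig2. The highest Olig1 value among Ts65Dn males belonged to M_TS_B88, whose sex markers went against its label. Without M_TS_B88 the log2 fold change of Olig1 was 0.23, the lowest of these values, and was not called. A direct test of the difference between the sexes called neither gene. The effect in females exceeded that in males by 0.18 for Olig1 (SE 0.121, adjusted p = 0.630) and by 0.21 for Olig2 (SE 0.115, adjusted p = 0.508) on the log2 scale. In 3 alternatives this excess ran from 0.14 to 0.21 for Olig1 and from 0.15 to 0.21 for Olig2, with neither gene called. One of them left out the libraries that went against their labelled genotype or sex.

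The other 7 genes had log2 fold changes between -0.15 (Nkx2-2) and 0.13 (Bcas1) in males, with a median of 0.01 and a lowest adjusted p-value of 0.707. Pdgfra had medians of 64.7 CPM in euploid and 59.7 CPM in Ts65Dn males, and its effect differed from that in females by 0.26 (SE 0.117, adjusted p = 0.406). For Nkx2-2, medians were 3.59 and 3.04 CPM in males and 3.48 and 3.94 CPM in females, and the effects differed by 0.34 (SE 0.166, adjusted p = 0.439). None of the 9 genes was called for a difference between the sexes, and 0% of all genes were. Pdgfra and Nkx2-2 had unadjusted p-values under 0.05, as did 11.1% of all genes.

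In E17.5 forebrain, Pdgfra was the only one of the 9 genes called, against 1.35% of all genes (1.1% higher), and 8 of the 9 had positive log2 fold changes. Pdgfra ran from 48.3 to 74.9 CPM in euploid embryos (median 55.2) and from 60.4 to 83.5 CPM in Ts65Dn embryos (median 73.0). The groups overlapped, with each of the 7 Ts65Dn values above the median of the euploid embryos and 3 above the highest of them. Its log2 fold change was 0.39 (SE 0.0907, adjusted p = 0.0546), a rise of 31.4%. The call was lost, at adjusted p-values of up to 0.127, without any 1 of the libraries EU4, EU5, EU7, TS2 and TS3. With the level of mature oligodendrocyte genes as a covariate the log2 fold change was 0.21 and was not called (adjusted p = 0.661), nor was it with the embryo number as a block (0.40, adjusted p = 0.125), although these numbers did not pair the embryos. The titles also carry a second number with 2 values, each found in both genotypes, whose meaning the labels do not give, and with it as a block Pdgfra was called (0.39, adjusted p = 0.0693).

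The precursor genes that rise as cells leave the cell cycle gave the largest fold changes in embryos, but with wide spreads. Bcas1 ran from 3.90 to 14.1 CPM in euploid embryos (median 6.97) and from 9.71 to 16.2 CPM in Ts65Dn embryos (median 12.8), with a log2 fold change of 0.77 (SE 0.232, adjusted p = 0.160). Gpr17 ran from 16.04 to 41.0 CPM (median 23.99) and from 29.9 to 42.4 CPM (median 33.5), with a log2 fold change of 0.50 (SE 0.154, adjusted p = 0.171). Both genes had all 7 Ts65Dn values above the median of euploid embryos, and the highest euploid value belonged to the embryo EU6.

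Olig1 and Olig2 were not called in embryos in the edgeR fit of all libraries. Each was called in 3 of 13 alternatives other than leaving out a library. Over these alternatives the log2 fold change ran from 0.24 to 0.43 for Olig1 and from 0.14 to 0.31 for Olig2. Olig1 ran from 72.4 to 146.0 CPM in euploid embryos (median 93.9) and from 86.4 to 159.1 CPM in Ts65Dn embryos (median 129.7), and Olig2 from 30.0 to 50.8 CPM (median 38.5) and from 36.5 to 54.7 CPM (median 48.0). Their log2 fold changes were 0.40 (SE 0.147, adjusted p = 0.281) and 0.29 (SE 0.101, adjusted p = 0.253). For each gene 6 of 7 Ts65Dn values exceeded the median of euploid embryos, TS6 was the lowest of them, and EU6 was the highest euploid embryo. Leaving out EU6 gave 5 called genes (Olig1, Olig2, Pdgfra, Gpr17 and Bcas1), but EU6 was the highest euploid embryo for each of these, so that its removal lowers their euploid means by construction. Leaving out other single embryos gave as few as 0 called genes. The share of all genes called in these refits and alternatives is not given here, so these counts cannot be set against it.

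Of the other genes in embryos, Sox10 had medians of 15.4 CPM in euploid and 19.4 CPM in Ts65Dn embryos (log2 fold change 0.27, SE 0.179, adjusted p = 0.532). Cspg4 (18.03 and 20.6 CPM) and Nkx2-2 (4.997 and 5.41 CPM) overlapped between genotypes. Tnr, which encodes the matrix protein tenascin-R made by precursors, oligodendrocytes and some neurons, was the one gene with a negative value (-0.11, SE 0.116, adjusted p = 0.696). The median over the 9 genes was 0.29, beside -0.01 over all genes, while 5 reached an unadjusted p-value under 0.05, beside 12.1% of all genes.

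**Figure D2:**
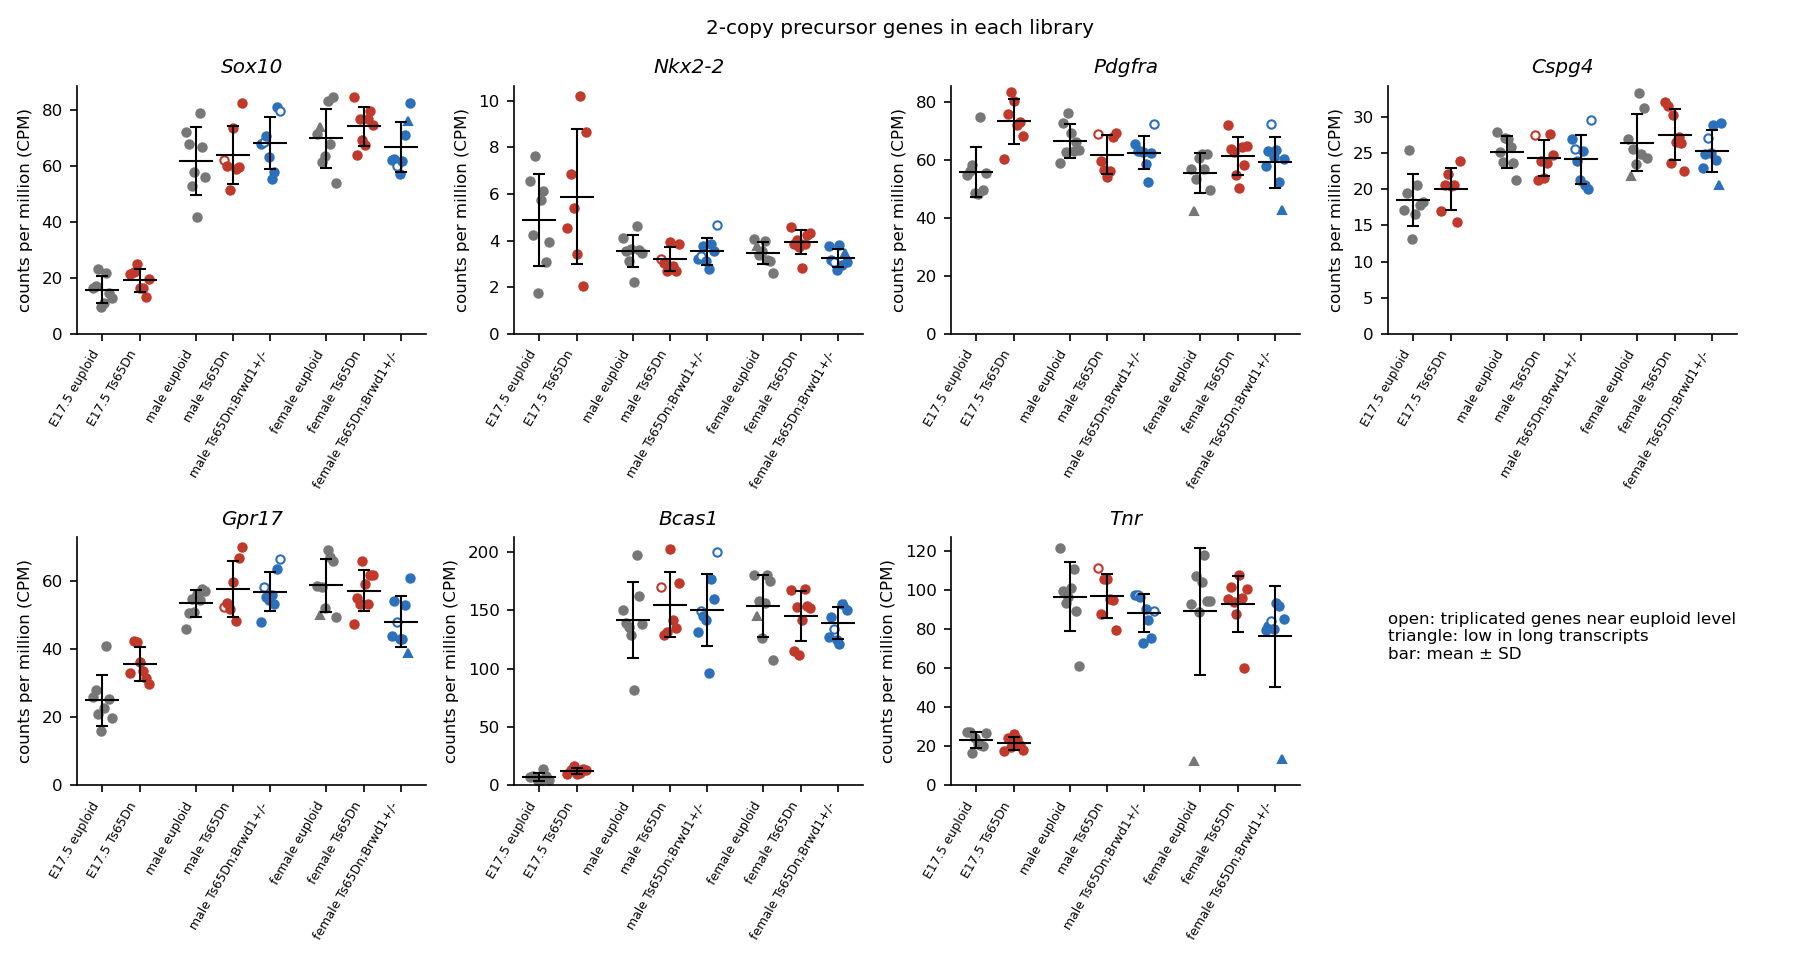
CPM of the 7 genes in 2 copies in every library, by group, with the mean and SD as black bars and the same symbols for libraries that stand apart. Bcas1, Gpr17 and Pdgfra lie higher in most Ts65Dn than euploid embryos, the adult genotypes overlap for all 7 genes, and Tnr is near 13 CPM in 1 euploid and 1 Ts65Dn;Brwd1+/- female.

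A few marker genes of other cell types were called between the embryonic genotypes, where 1.35% of all genes were called, and the part of those cell types in these values was not tested. The summed levels of each list overlapped between genotypes. Pdgfra is also made by fibroblasts of the meninges and vessels. Of 7 fibroblast genes (Col1a1, Col1a2, Col3a1, Dcn, Lum, Foxc1 and Slc6a13, a list chosen after the values of Pdgfra were seen), 6 had positive log2 fold changes and 1 was called, Slc6a13 (0.80, adjusted p = 0.0464). Their summed level ran from 186.7 to 1559 CPM in euploid embryos and from 368.8 to 714.7 CPM in Ts65Dn embryos. Of 7 pericyte genes, Vtn (0.56, adjusted p = 0.0247) and Anpep (0.61, adjusted p = 0.0614) were called higher, and the sum was 101.6 to 140.1 and 132.4 to 190.3 CPM. Gja1 (0.59, adjusted p = 0.033) was the called one of 7 astrocyte genes, whose sum was 471.0 to 796.0 and 609.5 to 771.9 CPM. The 11 choroid plexus genes all had positive values (median 0.57, none called, sums of 56.7 to 1443 and 680.8 to 1576 CPM). The 7 genes of the ventral telencephalon, among them Lhx6 (-0.60, adjusted p = 0.5002) and Nkx2-1 (-0.57, adjusted p = 0.527), all had negative ones (median -0.54, none called, sums of 237.7 to 443.8 and 35.2 to 447.3 CPM). None of the genes of these 5 lists had a count of 0 in any embryo. None of 7 neuronal and 6 microglial genes was called in embryos.

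The Brwd1 mutation was examined next, in Ts65Dn;Brwd1+/- vs. Ts65Dn hippocampus. None of the 9 genes was called in either sex with edgeR, nor was any other gene (0% of all genes in both sexes), and DESeq2 with its own size factors called none of the 9 either. With DESeq2 and 3 RUVr factors (factors of unwanted variation), 4 genes were called lower in females, namely Olig1 (-0.20, adjusted p = 0.0926), Gpr17 (-0.27, adjusted p = 0.024), Nkx2-2 (-0.27, adjusted p = 0.0755) and Tnr (-0.43, adjusted p = 2.9e-05), and none in males. The share of all genes called in that fit is not given here, so this count cannot be set against it. Tnr was 13.6 CPM in F_CR_B176, where the other Ts65Dn;Brwd1+/- females had 79.6 to 93.5. The edgeR value of Tnr in females was -0.28, and it ran from -0.36 to -0.13 with any 1 library left out. In males, Olig1 ran from 149.5 to 220.4 CPM in Ts65Dn;Brwd1+/- animals (median 177.2) and Olig2 from 34.4 to 45.8 CPM (median 39.8). Their log2 fold changes against Ts65Dn were 0.02 and 0.02, with 95% intervals of -0.15 to 0.19 for both genes. None of the 9 male values had an unadjusted p-value under 0.05, beside 7.48% of all genes. Without the libraries at euploid dosage, the male values of Olig1 and Olig2 were -0.0069 and 0.0026.

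In females, all 9 genes had negative log2 fold changes in Ts65Dn;Brwd1+/- vs. Ts65Dn, with a median of -0.16 beside 0.0038 over all genes. Olig1 ran from 133.6 to 202.6 CPM (median 177.0), with a log2 fold change of -0.18 (SE 0.0812, adjusted p = 0.9999), and 2 of 8 animals lay below all Ts65Dn females. Olig2 ran from 31.7 to 47.5 CPM (median 39.5), with a log2 fold change of -0.16 (SE 0.0745, adjusted p = 0.9999). The lowest value of both belonged to F_CR_B136, the female library at euploid dosage, and the highest to F_CR_B176. Without F_CR_B136 the log2 fold changes were -0.15 and -0.13, also not called. With any 1 library left out they ran from -0.22 to -0.15 for Olig1 and from -0.21 to -0.12 for Olig2, again not called.

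The largest differences of this comparison, apart from Tnr, were in Gpr17 and Nkx2-2. Gpr17 had medians of 57.1 CPM in Ts65Dn and 45.9 CPM in Ts65Dn;Brwd1+/- females, with ranges of 47.3 to 66.0 and 39.0 to 61.0 (log2 fold change -0.25, SE 0.0917, adjusted p = 0.9999). Nkx2-2 had medians of 3.94 and 3.14 CPM (-0.27, SE 0.104, adjusted p = 0.9999). Gpr17, Nkx2-2, Olig1 and Olig2 (4 of the 9) had unadjusted p-values under 0.05, as did 3.52% of all genes. Differences between the sexes in this contrast were not called, and the largest was -0.42 for Nkx2-2 (SE 0.166, adjusted p = 0.9999), the 1 gene with an unadjusted p-value under 0.05 (3.73% of all genes).

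Against euploid animals, Ts65Dn;Brwd1+/- hippocampus had positive log2 fold changes of Olig1 and Olig2, which did not pass the test with all libraries and in part passed it without those at euploid dosage. This comparison shares its samples with those above. In males the log2 fold changes were 0.30 (SE 0.0852, adjusted p = 0.162) and 0.24 (SE 0.0836, adjusted p = 0.289), and all 8 animals lay above the euploid median for both genes. In females they were 0.26 (SE 0.0812, adjusted p = 0.212) and 0.27 (SE 0.0746, adjusted p = 0.152), with 7 of 8 above the euploid median. Without the libraries at euploid dosage, Olig1 was called in males (0.33, adjusted p = 0.0296) and Olig2 was not (0.27, adjusted p = 0.144), and both were called in females (0.31, adjusted p = 0.0534, and 0.30, adjusted p = 0.0425). With all libraries none of the 9 genes was called, against 0.576% of all genes in males and 0.729% in females (0.554% higher). Unadjusted p-values under 0.05 belonged to 2 of them in males and 3 in females, and to 10.1% and 11.2% of all genes. Gpr17 in females had the largest negative value (-0.29, SE 0.0916, adjusted p = 0.226), with 5 of 8 Ts65Dn;Brwd1+/- females below all euploid females. DESeq2 called 1 gene in males (Olig1) and 2 in females (Olig1 and Olig2), and the share of all genes it called is not given here.

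**Figure D3:**
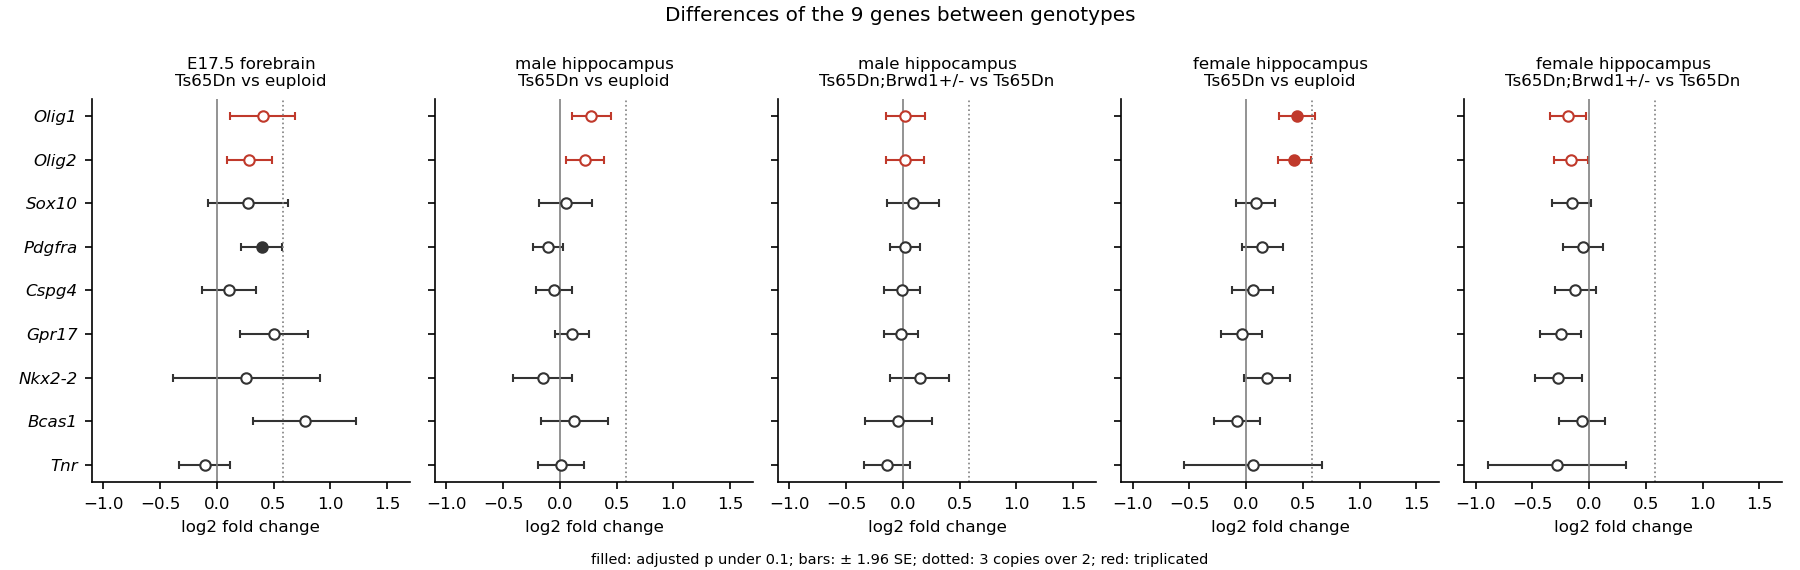
Log2 fold changes of the 9 genes in the 5 comparisons of Ts65Dn vs. euploid and of Ts65Dn;Brwd1+/- vs. Ts65Dn, with bars for 95% intervals, filled where the gene was called and red for the triplicated genes. The dotted line marks 3 copies over 2. Filled points are Pdgfra at E17.5 and Olig1 and Olig2 in females.

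To set Olig1 and Olig2 against the dosage of their own segment, the log2 value of each in a library was taken less the median of the other tested triplicated genes of that library. There were 131 such genes at E17.5 and in males, and 132 in females. In Ts65Dn vs. euploid these had median log2 fold changes of 0.56 at E17.5, 0.50 in males and 0.53 in females, and 83, 73 and 84 of them were called. The fold change of Olig1 exceeded those of 18, 14 and 42 of these genes, and that of Olig2 exceeded 11, 8 and 41. Both genes thus lay below the median of the segment in all 3 comparisons, as a description.

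The other genes of the segment were not put to the test that follows, so whether Olig1 and Olig2 stand apart among them was not tested. In the exact permutation test (2-sided, adjusted over 10 tests), Olig2 relative to the median of its segment was lower in Ts65Dn than in euploid embryos by 0.28 on the log2 scale (-0.30 ± 0.19 (SD, n = 7) vs. -0.01 ± 0.24 (SD, n = 8), exact permutation p = 0.0242, adjusted p = 0.0808). Each of the 7 Ts65Dn values was below the median of euploid embryos. In males, Olig1 lay lower by 0.21 (-0.22 ± 0.14 vs. -0.01 ± 0.16, exact permutation p = 0.0106, adjusted p = 0.0684) and Olig2 by 0.27 (-0.28 ± 0.22 vs. -0.01 ± 0.15, exact permutation p = 0.0137, adjusted p = 0.0684). Without the libraries at euploid dosage the male differences were -0.22 and -0.30 (adjusted exact permutation p = 0.0799 for both). The values of Olig1 at E17.5 (-0.16, adjusted exact permutation p = 0.443) and of both genes in females (-0.11 and -0.13, adjusted exact permutation p = 0.324 and 0.232) did not pass. In Ts65Dn;Brwd1+/- vs. Ts65Dn the differences were 0.08 and 0.09 in males and -0.12 and -0.09 in females, none past the threshold of 0.1. Without the libraries at euploid dosage they were -0.0035 and 0.01 in males and -0.14 and -0.13 in females, again none past it.

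Genes around Olig1 and Olig2 were counted in the same way. Within 300 kb of Olig2 the tables held 10 other genes, of which 9 were tested, and 6 were called higher in Ts65Dn vs. euploid at E17.5, 5 in males and 6 in females, where 1.1%, 0.671% and 1.94% of all genes were called higher. All 9 had positive log2 fold changes, from 0.19 to 1.01, 0.35 to 0.62 and 0.06 to 0.79. The smallest p-values belonged to Ifnar1, an interferon receptor subunit, at E17.5 (0.49, adjusted p = 1.19e-05) and in females (0.56, adjusted p = 6.95e-06), and to Cfap298 in males (0.52, adjusted p = 0.00984). In Ts65Dn;Brwd1+/- vs. Ts65Dn none of the 9 was called in either sex.

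The difference between the triplicated pair and the 2-copy genes was also taken library by library, as the log2 value of each less the mean of the 7 others, relative to euploid. In Ts65Dn females the median was 0.39 for Olig1 and 0.33 for Olig2, and every animal was above 0 (lowest 0.18 and 0.19, highest 0.51 and 0.48). Euploid females ran from -0.25 to 0.72 for Olig1 and from -0.17 to 0.51 for Olig2. Their highest values belonged to F_WT_B125, one of the libraries low in long transcripts, and exceeded every Ts65Dn female. In Ts65Dn males the medians were 0.29 and 0.20, with lowest values of -0.23 and -0.19 in M_TS_B145. In Ts65Dn embryos they were 0.15 and -0.04, since the mean of the 2-copy genes itself stood at 0.34 ± 0.19 (SD, n = 7). These are descriptions without a test.

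The wider lineage was followed with lists of precursor, committed and mature oligodendrocyte genes. In the genotype comparisons, between 0% and 3.17% of all genes were called. Of 20 other precursor genes, none was called in any genotype comparison. Their median log2 fold change in Ts65Dn vs. euploid was 0.04 at E17.5 (19 tested), -0.08 in males and -0.01 in females. Lhfpl3 had a log2 fold change of 0.34 (adjusted p = 0.305) at E17.5. In males the smallest p-values belonged to Ptprz1, a receptor phosphatase (-0.15, adjusted p = 0.393), and C1ql1 (-0.18, adjusted p = 0.423), and in females to Matn4 (-0.32, adjusted p = 0.109) and Sulf2 (0.21, adjusted p = 0.124).

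Of 14 genes of committed and premyelinating cells, none was called between genotypes. Bmp4 (0.62, adjusted p = 0.137) and Nfasc (-0.18, adjusted p = 0.189) had the smallest p-values in embryos, and Enpp6 (-0.53, adjusted p = 0.169) and Rras2 (-0.22, adjusted p = 0.171) in females. None of 16 genes of mature oligodendrocytes was called either. In Ts65Dn vs. euploid their median was 0.28 at E17.5 (14 tested, led by Cldn11 at 0.78, adjusted p = 0.141), 0.13 in males with 15 of 16 positive, and 0.01 in females. The effect in females less that in males was negative for all 16, with a median of -0.10, and none was called. Their summed level ran from 3219 to 7218 CPM in euploid males and from 5215 to 7898 CPM in Ts65Dn males, so that the ranges overlapped.

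Among 20 genes that specify the lineage or belong to the PDGF pathway, 1 was called between genotypes. This was Pdgfrb, the PDGF receptor of pericytes, which was lower in male Ts65Dn;Brwd1+/- vs. euploid hippocampus (-0.29, adjusted p = 0.0581). In that comparison 0.576% of all genes were called, and 0.136% of all genes were called lower. The ligand Pdgfd had the smallest p-value in embryos (0.53, adjusted p = 0.237). In males these were Id4 (-0.22, adjusted p = 0.215), an inhibitor of helix-loop-helix factors, and Gli3 (-0.21, adjusted p = 0.286), a transducer of hedgehog signals. Slc1a2, an astrocyte glutamate transporter, was, with Pdgfrb in the pericyte list, the called gene of the other cell type lists in genotype comparisons of hippocampus (-0.22, adjusted p = 0.0581, male Ts65Dn;Brwd1+/- vs. euploid).

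Tnr values in females rested on a pair of libraries. F_WT_B125 had 12.4 CPM, where the other euploid females had 88.8 to 118.1, and F_CR_B176 had 13.6 CPM, where the other Ts65Dn;Brwd1+/- females had 79.6 to 93.5. In these same libraries, the 10% of genes with the longest exons stood at -0.99 and -0.85 on the log2 scale relative to the 10% with the shortest, after group medians were removed, whereas the 60 other libraries lay between -0.26 and 0.15. The members with the longest exons, Tnr (12867 bases), Cspg4 (11931) and Pdgfra (10024), were below all other females of their group in both, and Olig1, with 2162 bases of exon, was above all of them in both. The part of this measure in the results was not tested beyond leaving the libraries out. Without them, Tnr in Ts65Dn vs. euploid females had a log2 fold change of -0.10 in place of 0.06, and Olig1 in Ts65Dn;Brwd1+/- vs. euploid females was called (0.27, adjusted p = 0.0823).

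**Figure D4:**
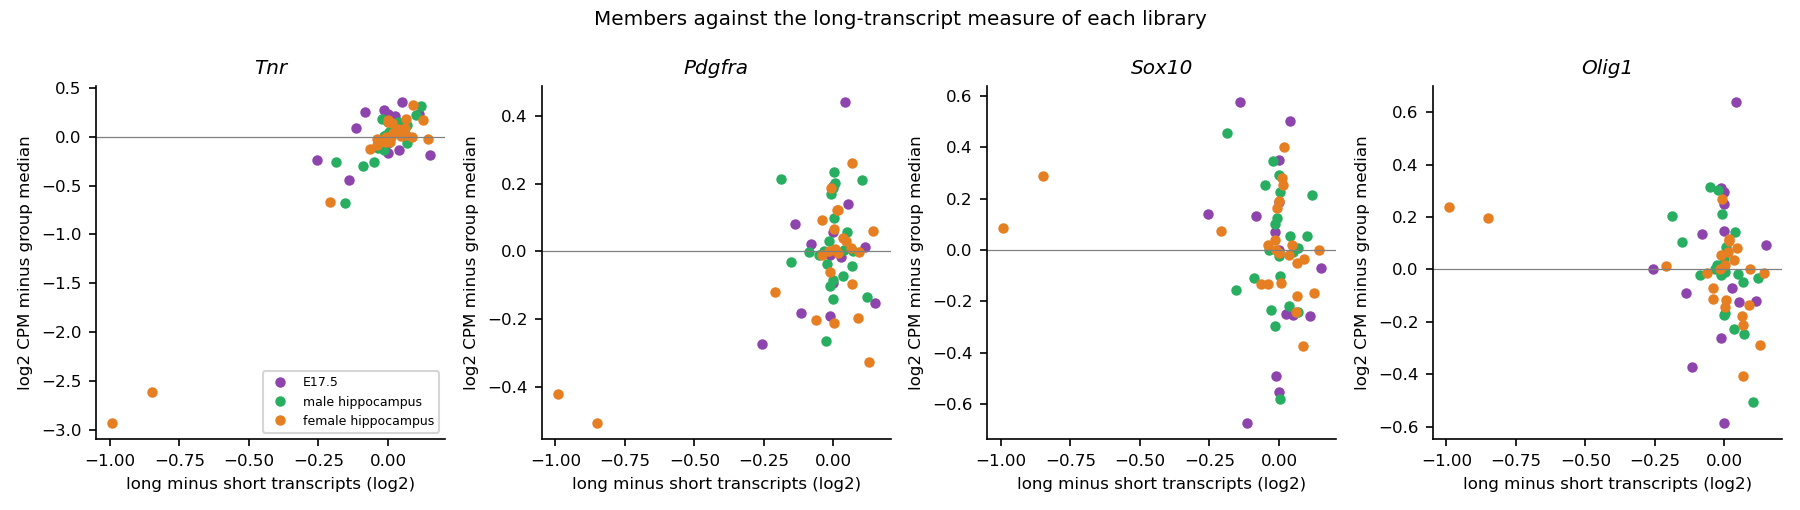
Log2 CPM of Tnr, Pdgfra, Sox10 and Olig1 relative to the group median (vertical) against the level of long relative to short transcripts in each of the 62 libraries (horizontal, log2). A pair of female libraries at -0.99 and -0.85 lies far to the left, low for Tnr and Pdgfra and high for Olig1.

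Across libraries of one genotype, sex and stage, Olig1 and Olig2 varied together. After the group means were removed, Pearson's r was 0.63 and Spearman's rho 0.62 over 43 hippocampus libraries, those at euploid dosage left out (permutation p of 0.0001 or less for each, from 100000 permutations). At E17.5 r was 0.93 and rho 0.86 over 15 libraries (permutation p of 0.0001 or less and of 0.00011). Without the 2 libraries farthest from the median of Olig1, r was 0.58 and 0.85. Adjusted over these 2 relations, the p-values were the same.

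In embryos Olig2 was the gene most like Olig1 of 16395, and Olig1 the gene most like Olig2, followed by Pigs, Adra1b, Slc25a18 and Mgat3 (r of 0.91 to 0.92 to Olig1) and by Slc38a3, Tril, Sesn2 and Sdk1 (r of 0.90 to 0.91 to Olig2). In hippocampus the 5 genes most like Olig1 of 17427 were Qdpr (0.79), Gal3st1 (0.78), Dnajb2 (0.77), Ndrg1 (0.76) and Cdc42ep2 (0.76), with Sox10 next (0.76). Those most like Olig2 were Gal3st1, Carhsp1, Gltp (0.67 each), Psat1 (0.64) and Olig1 (0.63). Without F_WT_B125 and F_CR_B176 the lists were led by Gna12 (0.87) for Olig1 and Rassf2 (0.70) for Olig2. The r of Olig1 to Pdgfra was 0.56 in embryos and 0.08 in hippocampus, and to Sox10 0.78 and 0.76. Without F_WT_B125 and F_CR_B176 the hippocampal values were 0.42 for Pdgfra and 0.77 for Sox10, so that the low value for Pdgfra rested on that pair. These values are descriptions, and the part of dissection, depth and sequencing run in them was not tested.

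Levels of the 9 genes at the 2 ages were compared in euploid libraries, per kilobase of exon. At E17.5 Olig1 was highest, with a median of 37.2 CPM per kb (range 28.7 to 59.0), followed by Olig2 at 13.03 (10.3 to 17.6), and these did not overlap. Pdgfra (4.76), Sox10 (4.35) and Gpr17 (3.997) came next with overlapping ranges, and Bcas1 (1.57), Tnr (1.53), Nkx2-2 (1.52) and Cspg4 (1.31) were lowest and overlapped. In hippocampus Olig1 stood at 71.8 CPM per kb (61.7 to 88.7), above Bcas1 at 42.1 (23.4 to 57.0), and these did not overlap. Sox10 (23.8), Olig2 (14.3), Gpr17 (11.6), Tnr (7.99) and Pdgfra (6.63) followed, each overlapping its neighbours. Cspg4 (2.29) and Nkx2-2 (1.34) were lowest, without overlap with each other or with Pdgfra.

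Of the 9 genes, 7 were called higher in adult hippocampus than in E17.5 forebrain, against 84.6% of all genes called (41.7% higher). Age, region and sequencing cannot be told apart in this comparison. Bcas1 had the largest log2 fold change (4.66, SE 0.223, adjusted p = 4.06e-16), followed by Sox10 (2.38), Tnr (2.32), Gpr17 (1.48), Olig1 (0.89), Cspg4 (0.80) and Pdgfra (0.44, adjusted p = 9.74e-06). Olig2 (0.08, SE 0.0756, adjusted p = 0.335) and Nkx2-2 (-0.16, SE 0.175, adjusted p = 0.410) were not called. All 16 mature genes were higher in hippocampus (median 5.54, with Mbp at 6.27 and Mobp at 9.80). Of the other precursor genes 7 were higher, among them Neu4 (5.87), and 10 lower, among them Cacng4 (-3.03) and Vcan (-3.03). Of the committed genes 8 were higher, among them Myrf (5.02), the transcription factor of myelination, and 5 lower. Over all genes, 41.7% were called higher and 42.9% lower.

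**Figure D5:**
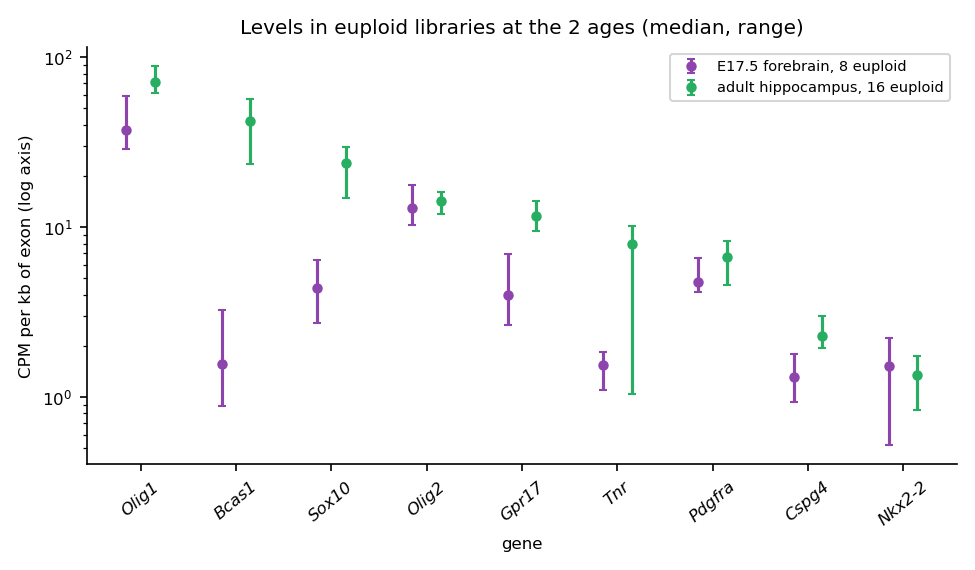
Median and range of CPM per kilobase of exon (log axis) for the 9 genes in 8 euploid E17.5 forebrain and 16 euploid adult hippocampus libraries. Bcas1 and Sox10 stand further apart between the ages than Olig2 and Nkx2-2, whose ranges overlap, and the low end of Tnr in adults is F_WT_B125.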

How the data were processed

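RNA-seq was used from 15 E17.5 forebrain libraries and 47 libraries of hippocampus at 6 weeks, made from polyA RNA with an Illumina TruSeq v2 kit, which does not keep strand. Reads of the antisense genes that overlap exons of Nkx2-2 and Bcas1, or of Lims2, which overlaps Gpr17, therefore cannot be told apart from those of the members where exons overlap. The authors aligned reads to mm10 with HISAT2, counted them on genes with featureCounts 2.0.1 and deposited raw counts, without normalization, for 27179 Entrez identifiers, of which 25275 matched RefSeq genes. The submitters' notes name HISAT2 2.1.0, DESeq2 2.11.40.6, and mm9 beside mm10. Reads of 2 flow cells were joined per library. All columns were assigned to samples.

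Groups came from the labels. Counts were scaled by TMM, filtered with filterByExpr (minimum count 10) and tested with edgeR 4.0.16 in R 4.3.3 (robust quasi-likelihood test, Benjamini-Hochberg adjustment, threshold 0.1). In hippocampus, each sex was fitted with all 3 genotypes together, and interactions used all 6 adult groups. CPM values are TMM-scaled, and log2 values used a prior count of 0.5. The triplicated segments were taken from chr16:84718281 to the end and from the start of chr17 to 8986648. Permutation tests used scipy 1.17.1. No 2 libraries of a group matched within sampling noise. The p-values measure the spread between these animals, 1 library each.

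Named genes were the members, at most 3 called genes of each list per comparison (or at most 2 with the smallest p-values), the nearby gene with the smallest p-value, and the 5 genes most like Olig1 and Olig2. The members and lists were chosen with earlier results of these data known. The alternatives were DESeq2 1.42.0, other scaling and filters, RUVr factors (coded anew from deviance residuals of edgeR), other libraries and covariates. The fibroblast list and the settings on long transcripts were chosen after seeing the data. The tests were tested on simulated counts. Some genes of the lists are not reported here by name.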

Additional observations from a re-analysis of the deposited data

Results flagged for a closer look

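Of 72 tests of a gene in a group, 6 found a library set apart from the rest of its group by Dixon's criterion, which chance alone meets in about 1 of 20 groups. Pdgfra was 74.9 CPM in the E17.5 euploid embryo EU6, where the other euploid embryos lay between 48.3 and 58.3. Nkx2-2 was 2.84 CPM in F_TS_B56, below the other Ts65Dn females at 3.72 to 4.60. The other 4 were low values of Tnr. It was 12.4 CPM in F_WT_B125 (others 88.8 to 118.1), 13.6 CPM in F_CR_B176 (79.6 to 93.5), 60.2 CPM in F_TS_T141 (87.6 to 107.5) and 60.9 CPM in M_WT_B95 (89.2 to 121.5). The first 2 of these libraries are those low in long transcripts, and F_TS_T141 stood at -0.21 on that measure. Which cause set these libraries apart was not tested.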

How the results depend on the processing

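The calls of Olig1 and Olig2 in Ts65Dn vs. euploid females held in all settings, with 2 of the 9 genes called, or 4 (Pdgfra and Tnr as well) with 3 RUVr factors in edgeR or DESeq2. With a library left out it was 2 to 2. At E17.5, where 1 gene was called, it was 3 with DESeq2, 5 with edgeR and 1 RUVr factor, and 6 with 3 RUVr factors in either tool. It was 0 at an adjusted p-value under 0.05 or with the mature oligodendrocyte level as a covariate, and 0 to 5 with a library left out. Embryos share the number after EU or TS in their titles across genotypes, but 3 of 7 pairs had a correlation above 0.1 (range -0.13 to 0.23), so the numbers did not pair them. With that number as a replicate block, 0 genes were called, and with the second title number as a block 1 was (Pdgfra). The share of all genes called in each of these alternatives, and in those of the next paragraph, is not given here. The counts of called members therefore cannot be set against that share.

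Where 0 genes were called in the comparisons of Brwd1+/- or of males, alternatives gave more. In male Ts65Dn vs. euploid animals it was 1 with 3 RUVr factors (edgeR, DESeq2) or without M_TS_B145, M_CR_T35 and M_CR_B138, and 0 to 1 with a library left out (1 without M_TS_B145). In male Ts65Dn;Brwd1+/- vs. euploid it was 1 with DESeq2, 1 or 3 RUVr factors in edgeR, only the groups compared, a long-transcript covariate or without the libraries at euploid dosage, 2 with DESeq2 and 3 RUVr factors, and 0 to 1 with a library left out (1 without M_CR_B138). In female Ts65Dn;Brwd1+/- vs. Ts65Dn it was 1 with edgeR and 4 with DESeq2 and 3 RUVr factors. In female Ts65Dn;Brwd1+/- vs. euploid it was 3 with RUVr factors, 4 with the long-transcript covariate, 1 with the mature oligodendrocyte covariate or without F_WT_B125 and F_CR_B176, and 2 with DESeq2, with all 6 groups in a fit, without F_CR_B136, or without all 3 libraries. With a library left out it was 0 to 3, with 2 without F_CR_B136 and 3 without F_WT_B125.

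Signs turned only for values that were not called on either side. With the mature oligodendrocyte covariate these were Sox10 (-0.10), Cspg4 (-0.15) and Tnr (0.0550) at E17.5, Sox10 (-0.0447) and Bcas1 (-0.0043) in male Ts65Dn vs. euploid, and Bcas1 (-0.10) in male Ts65Dn;Brwd1+/- vs. euploid. With the choroid plexus covariate they were Tnr (-0.0326) in male Ts65Dn vs. euploid, Pdgfra (-0.0102) in male Ts65Dn;Brwd1+/- vs. Ts65Dn and Nkx2-2 (0.00046) vs. euploid. Without the libraries at euploid dosage they were Tnr (-0.0285) in male Ts65Dn vs. euploid and Olig1 in male Ts65Dn;Brwd1+/- vs. Ts65Dn (-0.0069, and -0.0035 relative to its segment). Without M_TS_B88 they were Sox10 (-0.0208) in male Ts65Dn vs. euploid and Gpr17 (0.0381) in Ts65Dn;Brwd1+/- vs. Ts65Dn. Among animals with identifiers starting with B, they were Pdgfra (-0.0156) in males and Bcas1 (0.00701) in females, both in Ts65Dn;Brwd1+/- vs. Ts65Dn. Tnr in female Ts65Dn vs. euploid was -0.00818 with the long-transcript covariate, -0.10 without F_WT_B125 and F_CR_B176, and -0.10 without F_CR_B136 as well. Without that pair, Pdgfra in female Ts65Dn;Brwd1+/- vs. Ts65Dn was 4.48e-05, and the sex differences of Tnr were -0.12 (Ts65Dn vs. euploid) and 0.0130 (Ts65Dn;Brwd1+/- vs. Ts65Dn).

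With a library left out, signs also turned in male Ts65Dn vs. euploid (Sox10 -0.0208 to 0.11, Tnr -0.0670 to 0.0611), in male Ts65Dn;Brwd1+/- vs. Ts65Dn (Olig1 -0.0416 to 0.0720, Olig2 -0.0286 to 0.0636, Pdgfra -0.0156 to 0.0548, Cspg4 -0.0590 to 0.0265, Gpr17 -0.0543 to 0.0381, Bcas1 -0.11 to 0.0330) and vs. euploid (Nkx2-2 -0.0779 to 0.0587, Bcas1 -0.00267 to 0.16), and in female Ts65Dn vs. euploid (Gpr17 -0.0660 to 0.00311, Tnr -0.10 to 0.14). The cause of these changes was not tested. Nkx2-2 had the fewest reads, as few as 33 in a library, and the largest SE of the 9 genes at E17.5.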
